A study of Mus musculus with 8 samples.

Results

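The effect of dexamethasone alone on the lung of young mice was measured by comparing the 2 arrays titled Dex with the 2 arrays titled Dil, which make 4 of the 8 arrays of the series. Mice aged 3 days first received oil or retinoic acid. On day 4 each of these sets was divided between saline and dexamethasone, and whole lungs were then frozen for extraction of total RNA. Dil is not defined in the labels and was taken as oil followed by saline, the only arm left, and Dex as oil followed by dexamethasone. The other 4 arrays, 2 titled RA (retinoic acid, then saline) and 2 titled RA-Dex (retinoic acid, then dexamethasone), were used for the estimate of spread and for comparison. Replicates are lettered a and b, and whether a letter stands for an animal, a pool or a second hybridization of the same RNA is not stated. Every p-value here therefore measures the spread between these samples alone, which may be technical. The sources used here do not give doses, strain, sex or the time from dexamethasone to collection.

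Dexamethasone is a synthetic glucocorticoid. It binds the glucocorticoid receptor, which enters the nucleus, raises the transcription of genes that carry its binding sites and holds back others through contact with inflammatory transcription factors. In the first weeks after birth the rodent lung divides its air sacs by raising new septa, and glucocorticoids given at that time are known to thin the septal walls early and to stop this division. The title of the series names inhibition and protection of septation.

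Expression is given as the deposited array signal of a probe set, a group of probes that reads 1 transcript or, in some sets, several. The arrays carried the defining transcripts of lung. The surfactant gene Sftpc had signals of 67474 and 66508 in Dex and 61592 and 84336 in Dil, the club cell gene Scgb1a1 had 40487 and 40543 in Dex and 40353 and 52034 in Dil, and the alveolar type I cell gene Ager had 24940 and 24261 in Dex and 22068 and 25628 in Dil. Median signals lay between 317 and 343 over the 8 arrays, and on each array 23.3% to 25.7% of probe sets reached no more than the floor of 85.3, to which lower signals were set. Log2 signals of all tested probe sets correlated at 0.962 between the Dex arrays, at 0.948 between the Dil arrays and at 0.923 to 0.942 between a Dex and a Dil array.

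Of 7309 probe sets tested with limma, 236 changed at an adjusted p under 0.05 (3.23%), of which 146 rose (2%) and 90 fell (1.23%). Counted with 1 probe set a gene, 3.4% of 5618 genes changed. By any probe set, the calls stood for 203 genes with a symbol, 125 that rose and 78 that fell, and 17 of the 203 belonged to a list of classic glucocorticoid targets. At least a 2-fold change was seen in 104 of the rises and 56 of the falls, and at least a 4-fold change in 27 and 9. The smallest called rise was 1.49-fold and the smallest called fall was to 0.659 of the Dil level. All 236 probe sets had Dex and Dil arrays that did not overlap. Over tested probe sets, both Dil arrays were above both Dex arrays in 24.6%, and the opposite order held in 21.1%. Such separation is therefore shared by every call, and where it is given with a gene below it is description and no further support. The RA arrays, which do not enter the fold change but share in the estimate of spread, lay on the Dil side of both Dex arrays for most calls. Calls were picked for a large gap against that spread, while the probe sets set beside them were picked for order alone. The shares that follow are therefore description and no further support. Both Dex arrays were above the 4 Dil and RA arrays in 142 of the 146 rises (97.3%, against 52.9% of the 1540 tested probe sets with both Dex arrays above both Dil arrays) and below them in 84 of the 90 falls (93.3%, against 55.1% of the 1796 with the opposite order).

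The counts fell when single arrays were left out. Leaving out an array leaves 1 in its group and widens the error, so a call can end with its size unchanged. Ccnd1, at -0.72, lay between -0.74 and -0.70 without each array, whereas Mapk7, at -2.02, moved to -1.23 without Dex replicate b. A lost call alone therefore does not show that an array deviated. Dex a, Dex b, Dil a and Dil b stand for the 4 arrays, each left out singly. The 146 rises became 54 without Dex replicate b, 60 without Dex replicate a, 82 without Dil replicate b and 127 without Dil replicate a. The 90 falls became 26, 36, 30 and 40 in the same order. With no filter on low signals 57 rose and 39 fell, and that setting ended 54 of the 82 calls among named probe sets. Of these 82, 21 stayed called under every alternative that gave them a value, 18 under all 13 and 3 (Sult1a1, Clca3a1 and Fgfbp1) under fewer, since the stricter filter removed them and Sult1a1 also had no value with probe sets averaged. The 21 were Igfbp3, Fos, Otulinl, Slc10a6, Clca3a1, Gadd45g, Map3k6, Sult1a1, Xdh, Gpx3, Sesn1, Per1, Gja4, Unc5c, Fgfbp1, Erdr1, Zbtb16, Fkbp5, Cebpd, Ddit4 and the brightest probe set of Cxcl12. Averaging each gene's probe sets, those under the filter included, ended 18 calls. For 8 of these it also moved the log2 fold change by over 1.5 times: to -0.89 in Socs3, 0.31 in Lox, 0.53 in Lcn2, 0.43 in Clcn3, -0.80 in Tnnt1, 0.68 in Hk2, 0.27 in Bcl2l1 and -0.50 in Csf1r (adjusted p from 0.0594 to 0.643). The other 10 were Cd37, Cd79a, Nfil3, Nedd4l, Inmt, Krt19, H2-DMa, Myl1, Jun and Ccnd1 (0.0549 to 0.222). Otulinl and Gss stayed called with probe sets averaged, at 1.51 and -1.06, as did Fos at 1.28. Without Dil b, Serpina3n and Lpin1 stayed called at 1.92 and 1.95. Where leaving out 1 of the 4 arrays ended the call of another named gene, the arrays and the resulting adjusted p are given with that gene.

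**Figure D1:**
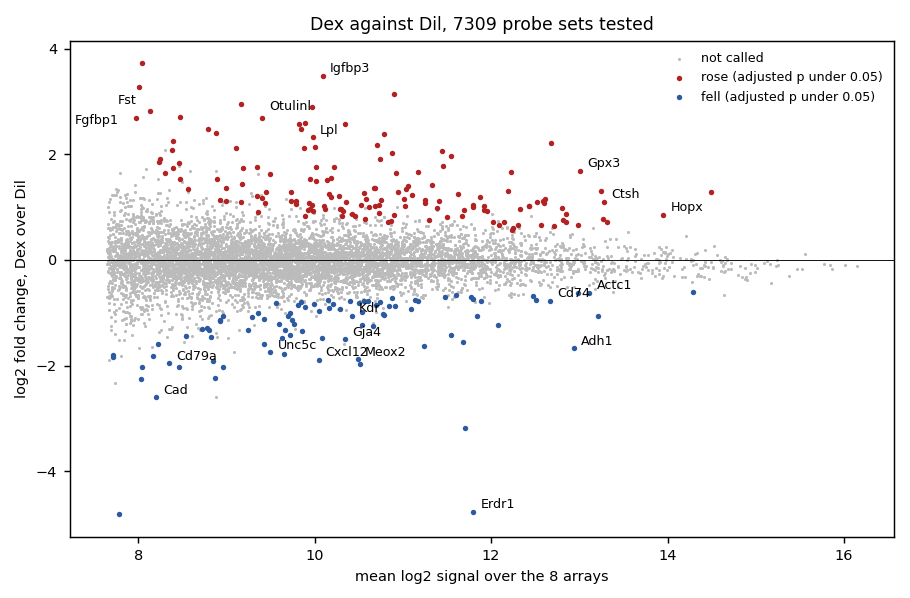
Log2 fold change of Dex over Dil (vertical axis) against the mean log2 signal over the 8 arrays (horizontal axis) for the 7309 tested probe sets. Red points mark the 146 rises, blue points the 90 falls and grey points the rest; Igfbp3 at 3.49 and Erdr1 at -4.77 are the farthest named genes on either side.

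Classic glucocorticoid targets serve here only as a reference for the treatment. Of 21 tested members 15 rose and 0 fell, against 2.12% and 1.28% of the 5618 genes. Their median log2 fold change was 1.15, against -0.02 over all genes. The shares of all genes, 2.12% rising and 1.28% falling, are also the background for every list below. The zinc-finger repressor Zbtb16 rose 8.81-fold (log2 fold change 3.14 ± 0.199 SE, adjusted p = 2.32e-05). Fkbp5, which lowers the receptor's affinity for hormone, rose 4.2-fold (2.07 ± 0.161, adjusted p = 5.49e-05). Cebpd and Ddit4, a transcription factor and an inhibitor of growth signalling, had log2 fold changes of 2.20 ± 0.163 and 2.18 ± 0.156.

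The glucocorticoid receptor is known to bind as a pair to a palindrome, and a full match to it, AGAACA followed after any 3 bases by TGTTCT, was looked for on both strands from 250 bases before to 50 bases after each gene's start in RefSeq windows (GRCm38.p6). It lay in the windows of 1 of the 106 rising genes that had one (0.943%), in 0 of 62 falling genes, in 1 of 4534 tested genes (0.0221%) and in 3 of 27025 genes in all (0.0111%). The rising gene was Sgk1, a kinase that raises sodium uptake in epithelium, named here after its values were seen because of this match. Its signals were 5715 and 5894 in Dex and 3573 and 3494 in Dil, with both Dex arrays above both Dil arrays (log2 fold change 0.72 ± 0.135 SE, adjusted p = 0.0162). Its 250 bases before the start of 1 of its 6 windows, on the plus strand at chr10:21993640-21993889, are shown because they hold the palindrome, which is in capitals and ends 175 bases before the start.
Sgk1: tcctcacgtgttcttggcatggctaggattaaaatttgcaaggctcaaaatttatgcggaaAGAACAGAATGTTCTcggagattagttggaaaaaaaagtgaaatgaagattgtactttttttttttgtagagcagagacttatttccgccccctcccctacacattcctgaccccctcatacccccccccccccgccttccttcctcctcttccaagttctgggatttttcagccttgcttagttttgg
The single AGAACA, which also lies within the palindrome and was searched on both strands, was in the windows of 15.1% of rising genes, 12.9% of falling genes and 14.9% of tested genes. A match is a run of letters and was not tested as a binding site.

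The largest rises outside the classic list included secreted factors, kinases and enzymes. Igfbp3, which binds insulin-like growth factors in tissue fluid, had signals of 3320.5 and 3697 in Dex and 286 and 342 in Dil, a rise of 11.2-fold (log2 fold change 3.49 ± 0.186 SE, adjusted p = 5.93e-06). Both Dex arrays were far above both Dil arrays, and the 2 arrays of each group lay close together. Igfbp6, another binding protein, rose 2.15-fold (1.11 ± 0.154, adjusted p = 0.00245, and 0.0516 without Dex replicate b). The other 9 tested members of the insulin and insulin-like growth factor list did not pass, among them the growth factors Igf1 (0.13, adjusted p = 0.802) and Igf2 (-0.37, adjusted p = 0.366). The list's median was -0.09.

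Other secreted proteins rose less steeply than Igfbp3. Follistatin, Fst, which traps activins, had signals of 787 and 717 in Dex and 25.5 and 132 in Dil (log2 fold change 2.82 ± 0.362 SE, adjusted p = 0.00162), so that 1 Dil array was under the floor and the size depends on it. The vasodilator peptide adrenomedullin, Adm, had signals of 821 and 769.9 in Dex and 99.4 and 151 in Dil and rose 6.49-fold (2.70 ± 0.333, adjusted p = 0.0013). Fgfbp1, which releases fibroblast growth factors stored in matrix, had signals of 618 and 484 in Dex and 66.9 and 33.5 in Dil, both Dil arrays under the floor, and was at least 6.41-fold higher in Dex (adjusted p = 0.00162). The acute phase protease inhibitor Serpina3n had signals of 1846 and 1952 in Dex and 501 and 129 in Dil (2.90 ± 0.476, adjusted p = 0.00718, and 0.0514 and 0.0648 when Dex replicate a or b was left out), and its Dil arrays differed widely from each other. Dex was above Dil in both arrays for each of these 4 genes.

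Intracellular and membrane proteins among the largest rises included Otulinl, with signals of 1601 and 1620.2 in Dex and 291 and 213 in Dil (log2 fold change 2.69 ± 0.222 SE, adjusted p = 9.08e-05). Map3k6, a stress kinase that acts upstream of other kinases, had 1974 and 2191 in Dex and 387 and 315 in Dil (2.57 ± 0.231, adjusted p = 0.000165), and Slc10a6, a transporter of sulfated steroids, had 1834 and 1927 in Dex and 282 and 407 in Dil (2.47 ± 0.215, adjusted p = 0.000143). In each the Dex arrays were several times brighter than either Dil array. The chloride channel regulator Clca3a1 rose 5.26-fold (2.40 ± 0.235, adjusted p = 0.000311), and the growth arrest gene Gadd45g rose 4.4-fold (2.14 ± 0.219, adjusted p = 0.000442).

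**Figure D2:**
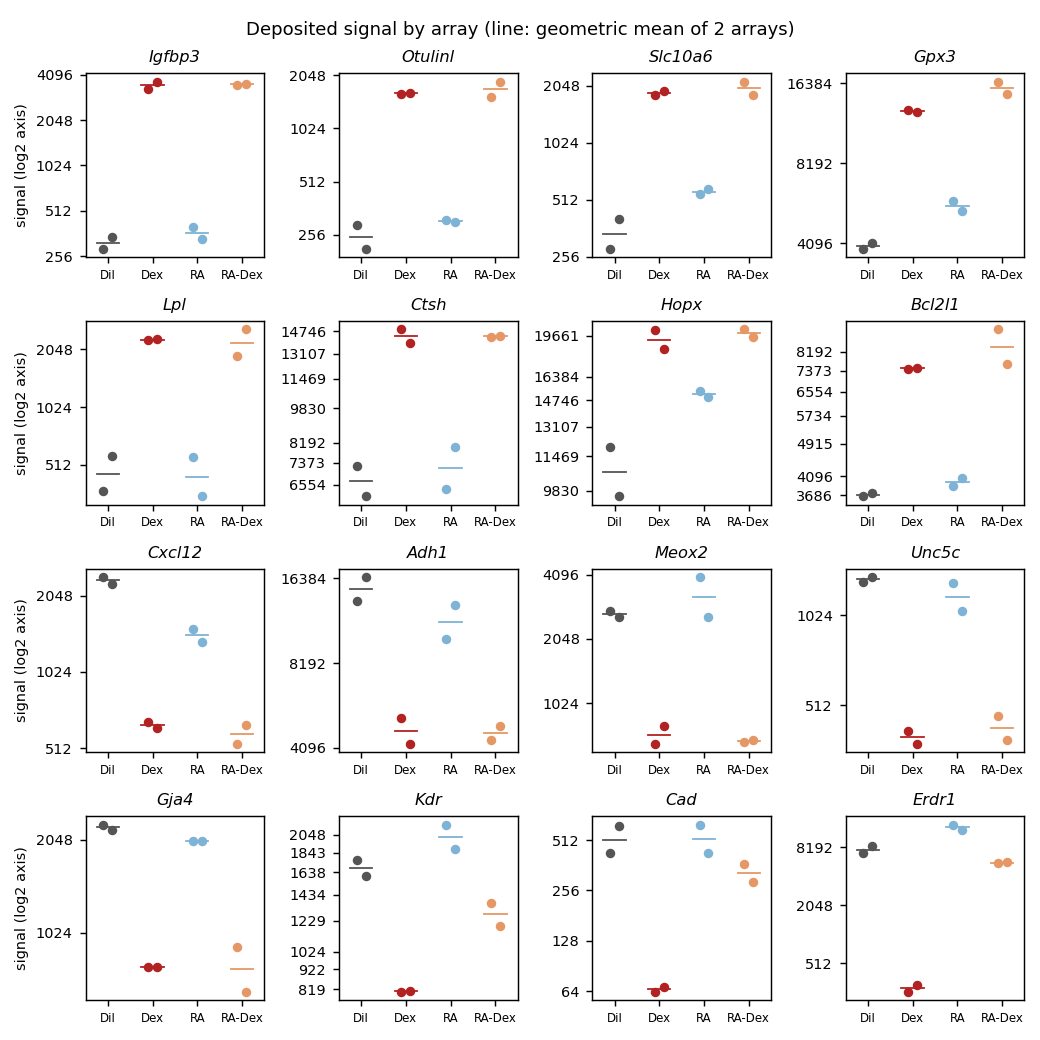
Deposited signal of 16 named genes on each array, on a vertical log2 axis, for Dil, Dex, RA and RA-Dex (horizontal axis). Each point is 1 array and each line the geometric mean of 2; Dex points lie above both Dil points in Igfbp3, Otulinl, Slc10a6, Gpx3, Lpl, Ctsh, Hopx and Bcl2l1 and below them in the other 8 genes, and the Cad signals in Dex lie under the floor of 85.3.

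Of 14 tested genes of fatty acid use and fuel switching 2 rose, Lpl and Lpin1 (14.3%, against 2.12% of genes), and 0 fell. Lpl, the lipase that frees fatty acids from circulating lipoproteins, had signals of 2293 and 2308 in Dex and 376 and 566 in Dil (log2 fold change 2.32 ± 0.277 SE, adjusted p = 0.00102). Lpin1, which serves both lipid synthesis and the switching on of fatty acid oxidation, had 1325 and 1317 in Dex and 341 and 53.9 in Dil (2.95 ± 0.504, adjusted p = 0.00905, and 0.0673 and 0.0701 when Dex replicate a or b was left out). The Dex arrays of each gene lay within a few percent of each other, while the Dil arrays of Lpin1 differed and 1 was under the floor. The other 12 members did not pass, among them Cpt1a, the gate of fatty acid entry into mitochondria (-0.08, adjusted p = 0.835), and the list's median was 0.30. Of 15 genes of fatty acid and phospholipid synthesis 0 rose and 1 fell, Lpcat1, with Fasn at 0.25 and Scd1 at -0.27 (adjusted p = 0.603 and 0.485). Of 11 genes of cholesterol synthesis and uptake 0 were called, with a median of -0.24, and Sqle was at -0.73 (adjusted p = 0.0648).

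Other branches of metabolism each had 1 called member. Hexokinase 2, Hk2, which traps glucose in the cell, rose 2.58-fold (1.37 ± 0.219, adjusted p = 0.00646, and 0.0673 and 0.0648 when Dex replicate a or b was left out), alone among 12 genes of glycolysis and gluconeogenesis. Arginase 2, Arg2, which turns arginine into ornithine, had signals of 820.5 and 685 in Dex and 172 and 185 in Dil (log2 fold change 2.07 ± 0.374 SE, adjusted p = 0.0128, and 0.0541 to 0.123 without each of the 4 arrays in turn), alone among 14 genes of amino acid and polyamine metabolism. Cad, which carries out the opening steps of pyrimidine synthesis, had signals of 63.4 and 67.8 in Dex and 426 and 625 in Dil. Both Dex arrays were under the floor, so Cad was at least 6.05-fold lower in Dex (adjusted p = 0.00209). It fell alone among 13 nucleotide synthesis genes, whose median was -0.25.

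Antioxidant and detoxifying enzymes moved in both directions. Among 24 tested there were 4 rises (16.7%, against 2.12% of genes) and 2 falls (8.33%, against 1.28%), with a median of 0.22. Gpx3, the secreted glutathione peroxidase, had signals of 13044 and 12843 in Dex and 3913 and 4118 in Dil (log2 fold change 1.69 ± 0.127 SE, adjusted p = 4.49e-05). Xanthine dehydrogenase, Xdh, which makes uric acid, rose 4.36-fold (2.12 ± 0.221, adjusted p = 0.000513), and the sulfotransferase Sult1a1 rose 5.59-fold (2.48 ± 0.261, adjusted p = 0.000529). Each of these 3 had Dex arrays well above the Dil arrays. Inmt, a methyltransferase of lung, rose 1.72-fold (0.78 ± 0.184, adjusted p = 0.0479, and 0.135 to 0.297 without each of the 4 arrays in turn). On the other side, Adh1, which oxidizes alcohols including retinol, had signals of 5251 and 4228 in Dex and 13589 and 16564 in Dil (log2 fold change -1.67 ± 0.177 SE, adjusted p = 0.000534). The glutathione transferase Gstt1 fell to 0.577 of its Dil level (-0.79 ± 0.189, adjusted p = 0.0489, and 0.141 to 0.241 without each array). Glutathione synthetase, Gss, which was not on the list, had both Dex arrays under the floor and was at least 3.56-fold lower (adjusted p = 0.0325, and 0.0632 to 0.223 without each array). Catalase and Gpx1 were at 0.36 and 0.38 (adjusted p = 0.565 and 0.51).

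Among transcription factors that respond within minutes to stimuli, 2 of 14 rose (14.3%, against 2.12% of genes) and 0 fell. Fos, a partner in the AP-1 factor, had signals of 2450.3 and 2859 in Dex and 519 and 383 in Dil (log2 fold change 2.57 ± 0.192 SE, adjusted p = 4.49e-05), and its usual partner Jun had 2224 and 1760.2 in Dex and 1268 and 735 in Dil (1.03 ± 0.243, adjusted p = 0.0464, and 0.113 to 0.297 without Dex a, Dex b or Dil b). The Dex arrays of Fos were several times above Dil, whereas 1 Dil array of Jun came near them. In the circadian clock list 2 of 15 rose, the repressor Per1, which is also a classic target (log2 fold change 1.55 ± 0.2 SE, adjusted p = 0.00165), and Nfil3 (1.10 ± 0.235, adjusted p = 0.0304, and 0.0866 to 0.227 without each array). Its median was 0.35, while Per2 was at 0.90 and Arntl, the clock's activator, at 0.26 (adjusted p = 0.217 and 0.673).

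Of 15 genes of a list drawn up for feedback brakes on growth and cytokine signals 2 rose, Map3k6, itself a kinase that activates others, and Sesn1, a sestrin that limits growth signalling (log2 fold change 1.33 ± 0.156 SE, adjusted p = 0.000954). The feedback phosphatase Dusp6 was at 0.55 (adjusted p = 0.0654). Socs3, an inhibitor of cytokine receptors, stood on that list with its brighter probe set, which was not called. Its dimmer probe set had signals of 193 and 27.7 in Dex and 514 and 392 in Dil. It fell (log2 fold change -1.81 ± 0.43 SE, adjusted p = 0.0489, and 0.135 to 0.277 without Dex b, Dil a or Dil b), but the brighter probe set had the opposite sign and 1 Dex array was under the floor. In the apoptosis list 2 of 16 rose (12.5%, against 2.12% of genes). Bcl2l1, whose main product protects cells from death, had signals of 7464 and 7502 in Dex and 3667 and 3738 in Dil (log2 fold change 1.02 ± 0.14 SE, adjusted p = 0.00237, and 0.585 with the mean over all probe sets of the gene), and Bnip3, which promotes the removal of mitochondria, rose 3.08-fold (1.62 ± 0.297, adjusted p = 0.0141, and 0.0632 to 0.125 without Dex a, Dex b or Dil b).

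Genes of DNA replication and of mitosis did not lie on the same side. Of 22 tested replication genes 19 had a negative fold change and 17 had both Dil arrays above both Dex arrays (77.3%, against 25.4% of tested genes), and the median was -0.52, but only Mcm7, a subunit of the replicative helicase, passed. It had signals of 854 and 862 in Dex and 1414 and 1669 in Dil (log2 fold change -0.84 ± 0.191 SE, adjusted p = 0.0391, and 0.0715 to 0.244 without each array in turn). Mcm2 and Pcna, a further helicase subunit and the sliding clamp of the polymerases, were at -0.73 and -0.45 (adjusted p = 0.0786 and 0.201). The median moved to -0.39 without Dex replicate b and to -0.36 with no filter. Of 24 mitosis genes 0 were called, 18 were positive and the median was 0.17, with Mki67 at -0.13 and Ccnb2 at 0.21 (adjusted p = 0.906 and 0.543).

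The regulators of entry into the cell cycle had 1 rise (7.14%, against 2.12% of genes) and 2 falls (14.3%, against 1.28%) among 14. Cyclin D2, Ccnd2, which drives cells out of G1, had signals of 351 and 550.4 in Dex and 1229 and 1432 in Dil (log2 fold change -1.59 ± 0.254 SE, adjusted p = 0.00625, and 0.0617 without Dex replicate a and 0.0603 without Dil replicate b). Cyclin D1, Ccnd1, had 1678 and 1714 in Dex and 2763 and 2834 in Dil (-0.72 ± 0.151, adjusted p = 0.028, and 0.0888 to 0.189 without each array). Both cyclins were lower in each Dex array than in each Dil array. Ccng2, a cyclin of arrested cells, had 2083 and 2121 in Dex and 1037 and 1075 in Dil (0.99 ± 0.187, adjusted p = 0.0162, and 0.0707 to 0.119 without each array) and was higher in each Dex array.

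After Erdr1 and Cad, the largest fall was that of Cxcl12 by its dimmest probe set. Its brightest, at -1.89, fell less than Cd37, Parm1 and Mapk7, each at -2.02. Cxcl12, a chemokine made by stromal cells that holds leukocytes and progenitors in tissue, was read by 3 tested probe sets, of which 2 fell. The brightest had signals of 651 and 617 in Dex and 2433 and 2279.5 in Dil (log2 fold change -1.89 ± 0.182 SE, adjusted p = 0.00027), and the dimmest had a log2 fold change of -2.24 ± 0.377 SE (adjusted p = 0.00821, and 0.0542 to 0.0638 without Dex b, Dil a or Dil b), with 1 Dex array under the floor. The remaining probe set had signals of 207 and 414 in Dex and 510 and 597 in Dil and was not called (-0.92 ± 0.34, adjusted p = 0.218). Cxcl12 was the only fall among 14 tested cytokine, chemokine and adhesion genes, in which Vcam1, the adhesion molecule of endothelium, was at -1.23 (adjusted p = 0.0906). Meox2, a homeobox factor of mesenchyme and vessel walls, had signals of 658 and 802 in Dex and 2754 and 2590.4 in Dil (log2 fold change -1.88 ± 0.218 SE, adjusted p = 0.000908). The other 16 of 17 tested mesenchymal and patterning factors did not pass, among them Tcf21 (0.07) and Foxf1 (-0.12), with a median of -0.19.

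In the axon guidance list 2 of 17 fell. Unc5c, a receptor for netrins that turns growing processes away, had signals of 421 and 380.5 in Dex and 1321 and 1373 in Dil (log2 fold change -1.75 ± 0.207 SE, adjusted p = 0.00101). St8sia2, which adds polysialic acid to adhesion molecules, had 541 and 701 in Dex and 1393 and 1452 in Dil (-1.21 ± 0.201, adjusted p = 0.00776, and 0.0868 without Dex replicate a and 0.0614 without Dil replicate b). Both were lower in each Dex array than in any Dil array. The kinase Mapk7 had 316 and 107 in Dex and 653 and 845 in Dil (-2.02 ± 0.416, adjusted p = 0.0263, and 0.0624 to 0.16 without Dex b, Dil a or Dil b), with Dex arrays that differed from each other. Hmces, a protein of DNA repair, had 225 and 133 in Dex and 747 and 569.8 in Dil (-1.91 ± 0.303, adjusted p = 0.00593, and 0.0536 without Dex replicate b). The transmembrane protein Parm1 and the zinc-finger gene Zfp90 fell to 0.247 and 0.287 of their Dil levels (adjusted p = 0.0253 and 0.0364), and each had 1 Dex array under the floor. Parm1 lost its call when Dex replicate a or either Dil array was left out (0.0542 to 0.187), and Zfp90 without each array (0.0764 to 0.203).

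The morphogen pathways showed few calls. In the Wnt list 1 of 16 rose and 1 fell, the matricellular proteins Ccn2 with signals of 5076 and 5418 in Dex and 2596 and 2054 in Dil (log2 fold change 1.18 ± 0.174 SE, adjusted p = 0.00377, and 0.0579 without Dex replicate b) and Ccn4 with 228 and 312 in Dex and 711 and 608 in Dil (-1.30 ± 0.262, adjusted p = 0.0233, and 0.0537 to 0.176 without each array). Dex lay above Dil in Ccn2 and below it in Ccn4 on every array. Of 23 genes of BMP, activin and TGF-beta signalling only Fst passed, while the ligands Bmp4 and Tgfb1 were at -0.78 and -0.76 (adjusted p = 0.0509 and 0.306). In the list of FGF and PDGF signalling Fgfbp1 rose and Pdgfa, the ligand that draws the myofibroblast precursors of septa, fell among 11. Pdgfa had signals of 2337 and 2435 in Dex and 3451 and 4109.8 in Dil (-0.66 ± 0.151, adjusted p = 0.0407, and 0.0563 to 0.263 without each array), and its receptor Pdgfra was at 0.63 (adjusted p = 0.0768). Of 9 Notch genes 0 passed, with Notch1 at -0.58 and Hes1 at -0.61 (adjusted p = 0.0655 and 0.212).

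Few matrix genes passed the test. Of 21 genes of collagens and fibre-forming matrix and 18 of basement membrane and integrins 0 were called, with medians of -0.10 and 0.04. Col1a1 was at -0.42 (adjusted p = 0.137) and Col4a1 at 0.09. Of 10 elastic fibre genes only Lox, which crosslinks elastin and collagen, rose. Its signals were 2647 and 3392 in Dex and 1039 and 890.4 in Dil (log2 fold change 1.64 ± 0.19 SE, adjusted p = 0.000908), its other tested probe set had the opposite sign, and the mean over its probe sets gave an adjusted p of 0.643. Elastin, Eln, was at 0.11 (adjusted p = 0.795).

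Of 20 proteases and inhibitors 2 rose and 1 fell. The cathepsin Ctsh, which trims surfactant proteins, had signals of 14902 and 13854 in Dex and 7228 and 6165 in Dil (log2 fold change 1.11 ± 0.146 SE, adjusted p = 0.00179), and Timp3, an inhibitor of metalloproteinases bound to matrix, had 7288 and 7105 in Dex and 3854 and 3305 in Dil (1.01 ± 0.164, adjusted p = 0.00712, and 0.0603 to 0.0729 without Dex a, Dex b or Dil b). Mmp11, a stromal metalloproteinase, had 491 and 384 in Dex and 947 and 947 in Dil (-1.12 ± 0.211, adjusted p = 0.016, and 0.0676 to 0.139 without Dex b, Dil a or Dil b). Dex was above Dil on every array in Ctsh and Timp3 and below it in Mmp11.

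Whole lung RNA mixes all cell types, so fewer cells of a type and less RNA per cell cannot be told apart here or in the cell type lists that follow. Of 23 endothelial genes 1 rose (4.35%, against 2.12% of genes) and 2 fell (8.7%, against 1.28%), with a median of -0.07. Kdr, the main growth receptor of endothelium for VEGF, had signals of 807 and 809.6 in Dex and 1765 and 1605 in Dil (log2 fold change -1.06 ± 0.173 SE, adjusted p = 0.00718, and 0.0513 to 0.0686 without Dex a, Dex b or Dil a). Gja4, which joins arterial endothelial cells through gap junctions, had 796 and 792 in Dex and 2289.7 and 2199.8 in Dil (-1.50 ± 0.191, adjusted p = 0.00162). In both genes every Dil array was far above every Dex array. Lyve1, the hyaluronan receptor of lymphatic vessels, had 2299 and 2799 in Dex and 1485 and 1324 in Dil (0.85 ± 0.182, adjusted p = 0.03, and 0.0693 to 0.26 without each array). The endothelial genes Cdh5 and Pecam1, common to most vessels, were at -0.15 and 0.07 (adjusted p = 0.711 and 0.969).

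In the epithelium, Hopx, a homeobox gene of alveolar type I cells, had signals of 20177 and 18501 in Dex and 11957 and 9595 in Dil (log2 fold change 0.85 ± 0.133 SE, adjusted p = 0.00544, and 0.076 without Dex replicate a). It was the only call among 6 type I cell genes, whose median was 0.17, and Pdpn was at 0.82 (adjusted p = 0.243). Of 9 type II cell genes 2 fell (22.2%, against 1.28% of genes) and 0 rose, with a median of -0.11. Lpcat1, which remodels the phospholipid of surfactant, had signals of 3142 and 2724 in Dex and 5129 and 4902 in Dil (-0.78 ± 0.157, adjusted p = 0.0238, and 0.0833 to 0.211 without each array). The mucin Muc1 had 5595 and 5985 in Dex and 8141 and 9821 in Dil (-0.63 ± 0.136, adjusted p = 0.0322, and 0.143 to 0.226 without Dex a, Dex b or Dil b). The surfactant protein genes Sftpc and Sftpb were at -0.11 and 0.09 (adjusted p = 0.802 and 0.834). Of 11 airway genes 0 were called, with Scgb1a1 at -0.18 and the ciliary factor Foxj1 at -0.32.

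Of 13 genes on a list for the ion and water transport of fluid clearance 3 rose (23.1%, against 2.12% of genes) and 0 fell, with a median of 0.21. The 3 are known for different roles, and Nedd4l is known to oppose sodium uptake. The potassium channel Kcnk1 had signals of 1819.9 and 1726 in Dex and 848 and 457 in Dil (log2 fold change 1.51 ± 0.313 SE, adjusted p = 0.0268, and 0.124 to 0.173 without Dex a, Dex b or Dil b). Nedd4l, a ubiquitin ligase that removes the epithelial sodium channel from the membrane, had 3101 and 4234 in Dex and 1719.9 and 1952 in Dil (0.98 ± 0.2, adjusted p = 0.0243, and 0.0776 to 0.227 without Dex b, Dil a or Dil b). The chloride transporter Clcn3 had 1287 and 1531 in Dex and 822 and 626 in Dil (0.97 ± 0.219, adjusted p = 0.0383, and 0.122 to 0.268 without Dex a, Dex b or Dil b), and 1 of its other tested probe sets had the opposite sign. All 3 were higher in each Dex array than in each Dil array. The sodium pump subunit Atp1b1 and the water channel Aqp1 were at 0.71 and 0.21 (adjusted p = 0.198 and 0.643).

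**Figure D3:**
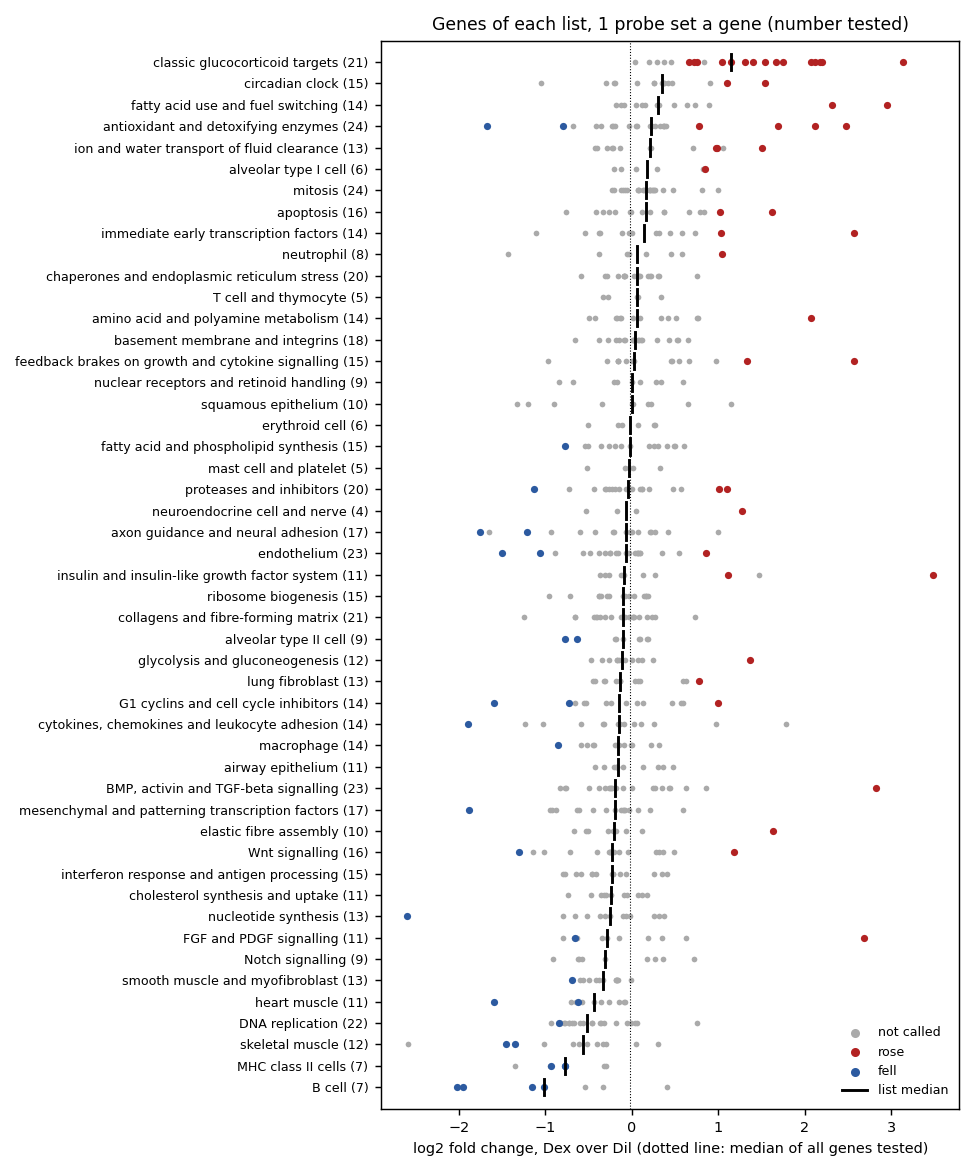
Log2 fold change of Dex over Dil (horizontal axis) for the tested genes of each list with at least 4, 1 point a gene, ordered by list median (black bar). Red and blue points rose or fell at an adjusted p under 0.05; the medians run from -1.01 for B cell genes to 1.15 for classic glucocorticoid targets, and the dotted line is the median of all genes at -0.02.

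Markers of B lymphocytes were the lowest of the lists by median. Of 7 tested genes 4 fell and 0 rose (57.1%, against 1.28% of genes), and the median was -1.01. The heavy chain of the antibody receptor, Ighm, had signals of 1116 and 1222 in Dex and 2265 and 2456 in Dil (log2 fold change -1.01 ± 0.173 SE, adjusted p = 0.00905, and 0.0648 to 0.0964 without Dex a, Dex b or Dil b). Its signalling partners Cd79a and Cd79b had 213 and 100.2 in Dex and 397 and 808 in Dil and 276 and 308 in Dex and 665 and 629.6 in Dil (-1.96 ± 0.462 and -1.15 ± 0.254, adjusted p = 0.0471 and 0.035). The 4 arrays did not overlap in any of the 3 genes, though the Dil arrays of Cd79a differed from each other. Cd37, a membrane protein of B cells, fell (-2.02 ± 0.461, adjusted p = 0.0391) with 1 Dex array under the floor. Cd79a lost its call without Dex replicate b (0.29) or Dil replicate b (0.32), Cd79b without each array (0.122 to 0.199), and Cd37 without Dex b, Dil a or Dil b (0.0932 to 0.23). The count of 4 falls became 2 without Dex replicate a or Dil replicate a, 0 without Dex b or Dil b and 0 with no filter, while the median stayed between -1.08 and -0.95 without each array and was -0.46 with no filter.

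Outside the list, the antibody light chain segment Igkv6-23 had signals of 359.9 and 367 in Dex and 1415 and 1097 in Dil (log2 fold change -1.78 ± 0.23 SE, adjusted p = 0.00165). It belongs to a family of similar segments, and its probe set could also read others. Summed over the 11 B cell genes on the array, signals were 3033 and 3450 in Dex, 5687 and 6100 in Dil, 5544 and 5901 in RA and 4418 and 4008 in RA-Dex, so both Dex arrays were the lowest of the 8. Of 5 tested genes of T cells and thymocytes 0 were called, with a median of 0.06, and 4 of the 16 on the array were at or under the floor on all 8 arrays.

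Genes of the MHC class II pathway, by which dendritic cells, macrophages and B cells present peptides, were also low. Of 7 tested members 3 fell and 0 rose (42.9%, against 1.28% of genes), all 7 were negative, 6 had both Dil arrays above both Dex arrays and the median was -0.78. The alpha chain H2-Aa had signals of 1350 and 1195 in Dex and 2238 and 2108 in Dil (log2 fold change -0.77 ± 0.168 SE, adjusted p = 0.0325, and 0.122 to 0.247 without each array). Its chaperone Cd74, the invariant chain, had 4953 and 5330 in Dex and 7761 and 9965 in Dil (-0.78 ± 0.151, adjusted p = 0.0195, and 0.0978 to 0.171 without Dex a, Dex b or Dil b). H2-DMa, which helps to load the peptide, had 942 and 814 in Dex and 1648 and 1702 in Dil (-0.94 ± 0.177, adjusted p = 0.0163, and 0.0656 to 0.15 without each array). In these 3 genes every Dil array was above every Dex array. The count of 3 became 0 when either Dex array or Dil replicate b was left out, 1 without Dil replicate a, and 0 with no filter or with no intensity trend. Summed over 9 genes, signals were 8947 and 9836 in Dex, 14550 and 17190 in Dil, 11330 and 11140 in RA and 12370 and 11060 in RA-Dex, so the Dil arrays were the highest of the 8 and the Dex arrays the lowest.

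Class II promoters are known for a shared Y box, bound by the factor NF-Y. The letters CTGATTGG, searched on both strands, lay before the start in 3 of the 6 listed class II genes with a RefSeq window, H2-Aa, H2-Eb1 and H2-Oa. They lay anywhere in the window of 8.06% of falling genes, 5.66% of rising genes and 6.95% of tested genes. Stretches from 110 to 11 bases before the start are shown for H2-Aa, which fell (minus strand, chr17:34287834-34287933), and for H2-Eb1, at -0.33 (adjusted p = 0.473; plus strand, chr17:34305757-34305856), because the pair share the box but not the call. The Y box is in capitals.
H2-Aa: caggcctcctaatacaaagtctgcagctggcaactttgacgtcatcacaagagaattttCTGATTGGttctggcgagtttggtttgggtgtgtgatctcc
H2-Eb1: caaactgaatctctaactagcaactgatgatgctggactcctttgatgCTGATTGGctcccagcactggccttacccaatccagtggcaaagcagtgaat
The match is a description of these letters, and no factor was measured.

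Other blood cell lists had few calls. Of 14 macrophage genes only Csf1r, the receptor of their growth factor, fell, with signals of 609.9 and 647 in Dex and 1249.8 and 1025 in Dil (log2 fold change -0.85 ± 0.19 SE, adjusted p = 0.0364, and 0.0776 to 0.217 without each array). The macrophage median was -0.17, and Cd68 was at -0.17 (adjusted p = 0.808). Of 8 neutrophil genes only Lcn2, an iron-binding protein that epithelium also makes and a classic target as well, rose (1.04 ± 0.152, adjusted p = 0.00353, and 0.0505 without Dex replicate a). The neutrophil granule gene S100a8 was at -0.04. Of 15 interferon and antigen processing genes 0 passed, with a median of -0.23 and Irf1 at -0.59 (adjusted p = 0.137). Of 6 erythroid genes and 5 of mast cells and platelets 0 were called.

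The heart, skeletal and smooth muscle lists held 2, 2 and 1 falls and 0 rises, and summed muscle signals were highest in the Dil arrays. Of 11 tested heart muscle genes 2 fell (18.2%, against 1.28% of genes) and 0 rose, all 11 were negative, 9 had both Dil arrays above both Dex arrays (81.8%, against 25.4% of genes) and the median was -0.44. Cardiac actin, Actc1, had signals of 6704 and 7792 in Dex and 10796 and 11456 in Dil (log2 fold change -0.62 ± 0.137 SE, adjusted p = 0.0345, and 0.0755 to 0.277 without each array), and Csrp3, a protein of the sarcomere, had 210.4 and 160.1 in Dex and 501 and 614 in Dil (-1.60 ± 0.32, adjusted p = 0.0225, and 0.0618 to 0.167 without each array). Actins are similar genes, and the Actc1 probe set could also read others. The first 2 tested genes of the heart list, Myh6 and Nppa, did not pass (adjusted p = 0.409 and 0.595). Of 12 skeletal muscle genes 2 fell (16.7%, against 1.28% of genes) and 0 rose, with a median of -0.57. Its first 2 tested genes, Acta1 and Mylpf, did not pass (adjusted p = 0.13 and 0.14). Slow troponin T, Tnnt1, had 711 and 478 in Dex and 1605 and 1368 in Dil (-1.35 ± 0.226, adjusted p = 0.00821, and 0.0885 without Dex replicate b and 0.058 without Dil replicate a), and the fast light chain Myl1 had 589 and 257 in Dex and 1028 and 1099.9 in Dil (-1.45 ± 0.344, adjusted p = 0.0481, and 0.13 to 0.271 without Dex b, Dil a or Dil b).

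Of 13 smooth muscle and myofibroblast genes 1 fell and 0 rose, all 13 were negative, 10 had both Dil arrays above both Dex arrays and the median was -0.33. Enteric actin, Actg2, had signals of 4320 and 5262 in Dex and 7785 and 7606 in Dil (log2 fold change -0.69 ± 0.146 SE, adjusted p = 0.0294, and 0.0721 to 0.258 without each array), and Acta2 was at -0.33 (adjusted p = 0.213). The Actg2 probe set could also read other actins. Summed heart muscle signals were 19410 and 19970 in Dex, 28260 and 29390 in Dil, 23300 and 23410 in RA and 24060 and 23480 in RA-Dex. Summed skeletal muscle signals were 8998 and 7675 in Dex, 13810 and 14000 in Dil, 9906 and 8833 in RA and 9658 and 9373 in RA-Dex. In both lists the Dil arrays were above the 6 others. Of the heart sums Actc1 alone gave 6704 and 7792 in Dex and 10796 and 11456 in Dil. Over all calls, both Dil arrays were above the 6 other arrays in 39 of the 90 falls (43.3%, against 25.2% of the 1796 tested probe sets with both Dil arrays above both Dex arrays) and below them in 63 of the 146 rises (43.2%, against 24.9% of the 1540 with the opposite order). Here too the calls were picked for a large gap and the probe sets beside them for order alone, so these shares are description only. The part of tissue taken at dissection in the differences between arrays was not tested.

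**Figure D4:**
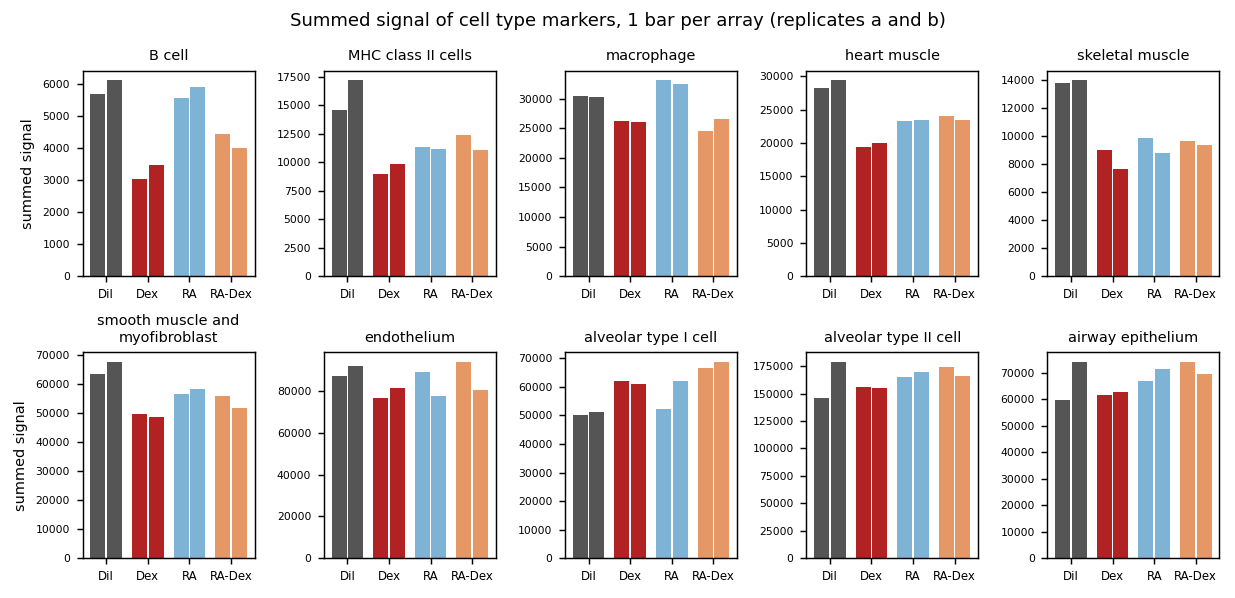
Summed deposited signal (vertical axes, from 0) of the genes of 10 cell type lists on each array, 2 bars a group for replicates a and b. Dex bars are the lowest of the 8 for B cell and MHC class II genes, and Dil bars the highest for MHC class II, heart, skeletal and smooth muscle genes.

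Among the remaining lists, the nerve and neuroendocrine gene Uchl1 rose 2.42-fold (1.28 ± 0.235, adjusted p = 0.0142, and 0.0695 to 0.115 without Dex a, Dex b or Dil a), alone among 4 of its list. Krt19, a keratin of mesothelium and epithelium, rose 1.59-fold (0.67 ± 0.148, adjusted p = 0.0362, and 0.0608 to 0.297 without each array), alone among 3 mesothelial genes. Of 20 chaperone genes, 15 of ribosome biogenesis, 10 of squamous epithelium and 9 of nuclear receptors and retinoid handling 0 passed. In limma's fit these 4 lists had 2, 2, 5 and 2 members with an unadjusted p under 0.05. All lists with 0 calls together had 33 of 184 members, at 1 probe set a gene. Over all tested probe sets, which hold several for some genes, it was 1086 of 7309, and no test compared the 2 shares. The Notch list, also with 0 calls, had 5 of 9 such members and the interferon list 5 of 15. Squamous Krt4 was at -1.20 (adjusted p = 0.0889) and the retinoid receptor Rarg at -0.85 (adjusted p = 0.261).

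Dexamethasone was also given after retinoic acid, and that comparison, RA-Dex against RA, compares none of the arrays of Dex against Dil. Both come from 1 fit and share 1 estimate of the spread of each probe set, so their calls are not independent. It called 256 of the 7309 probe sets (3.5%), with 2.28% rising and 1.22% falling. Of the 236 calls without retinoic acid, 224 had the same sign after it (94.9%, against 62.2% of tested probe sets), and 128 were called in both, which is 54.2% of the 236 and 50% of the 256. The rises were more often called again than the falls, 97 of 146 (66.4%) against 31 of 90 (34.4%), a difference that was not tested. Median log2 fold changes were 1.16 without and 1.06 after retinoic acid for the rises, and -1.13 and -0.62 for the falls. Over all tested probe sets the fold changes correlated at r = 0.495 (rho = 0.378) across genes, which are not independent replicates.

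The difference between the 2 effects was called in 1 probe set (0.0137%), that of Erdr1, a gene of the region that both sex chromosomes share. Its signals were 259 and 307 in Dex and 7064 and 8363 in Dil, and 14029 and 12291 in RA and 5591 and 5723 in RA-Dex. Dexamethasone arrays were lower with and without retinoic acid, by -4.77 ± 0.159 SE without it (adjusted p = 8.34e-08) and by -1.22 ± 0.159 after it (0.00175), a difference of -3.55 (adjusted p = 6.8e-05). The Dex arrays stood far below the 6 others. Erdr1 was read by 2 tested probe sets, and the other had the same sign in Dex against Dil but was not called in the difference. Whether the called probe set also reads other transcripts was not tested. Averaging all probe sets of each gene gave -2.41 for Erdr1 without retinoic acid, still called, but then 0 differences between the 2 effects were called. Beside this, the X-linked Xist had signals of 727 and 950.2 in Dex and 324 and 401 in Dil and 876 and 742 in RA and 419 and 936 in RA-Dex, and the Y-linked Eif2s3y had 253 and 211 in Dex and 365 and 122 in Dil and 119.5 and 263 in RA and 267 and 239 in RA-Dex. The part of the sex of the animals was not tested.

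Several named genes differed in size between the 2 settings without passing that test. Serpina3n had a log2 fold change of 2.90 without and 0.57 after retinoic acid, Cad -2.60 and -0.68, Hmces -1.91 and 0.04, Mapk7 -2.02 and -0.14, and Cd74 -0.78 and 0.20. The adjusted p of each of these differences lay between 0.578 and 0.811. The class II median was -0.78 without and -0.17 after retinoic acid, and the heart muscle median -0.44 and 0.10. Igfbp3 (3.49 and 3.28), Fst (2.82 and 2.80), Lpl (2.32 and 2.32) and Map3k6 (2.57 and 2.55) had closer values in the 2 settings.

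**Figure D5:**
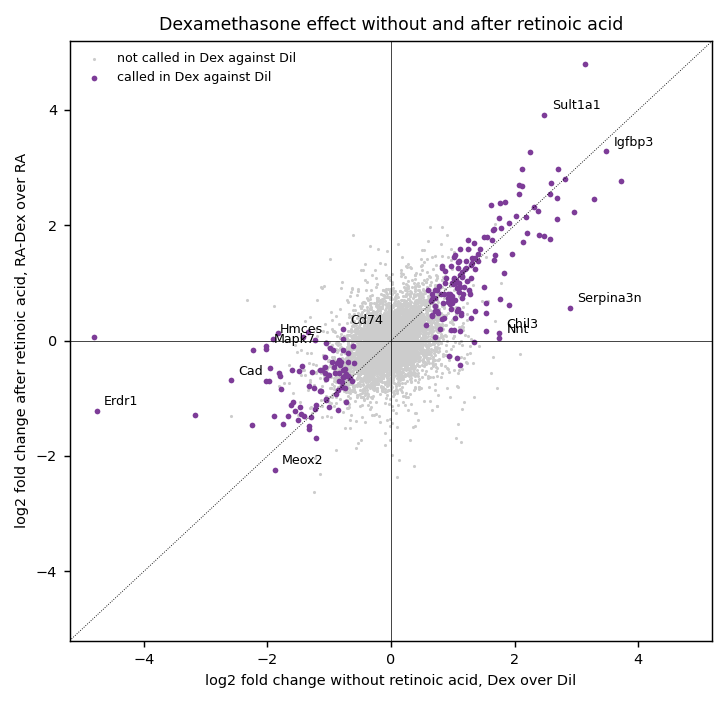
Log2 fold change after retinoic acid (RA-Dex over RA, vertical axis) against that without it (Dex over Dil, horizontal axis) for the 7309 tested probe sets, with the 236 called in Dex against Dil in purple and a dotted line of equal values. Most rises lie near the line, and Erdr1 at -4.77 and -1.22 lies above it.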

How the data were processed

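Total RNA of whole lung was hybridized to 8 Affymetrix mouse arrays. The authors deposited linear intensity values, 1 for each probe set on an array. They had been scaled, as the values show (mean after trimming 2% at each end, 800.4 on every array). The sources used here name neither the software nor any detection call. Intensities under the pooled 25th percentile (85.3) were set to that floor and taken as log2. Of 12488 probe sets 66 controls were dropped, and 7309 of the other 12422 were tested, those whose mean log2 exceeded the pooled 40th percentile (200.8). Symbols came from the array's annotation, updated by Entrez ID (10833 probe sets with 1 symbol, 10817 of them matched, 396 with several, 1193 with none).

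Each probe set was fitted in limma 3.58.1 (R 4.3.3) with 1 mean per group over all 8 arrays, eBayes with an intensity trend, two-sided, 4 residual and 6.69 prior degrees of freedom, and Benjamini-Hochberg adjustment over the 7309. Errors are standard errors (SE), for 2 arrays against 2. An adjusted p under 0.05 counts as called. Lists (53) use the brightest probe set of each gene. The comparison, the lists and the naming rule were chosen with earlier results of these data known. Named genes are the 15 largest rises and 15 largest falls outside the classic list, each list's called members and first 2 measured members, the called differences between the 2 dexamethasone effects and 3 classic targets. Where a group was wholly at the floor, the bound compares the other group's mean with the floor. Alternatives were quantile normalization, no filter, a filter at the 60th percentile (508.5), a pseudocount, no trend, a robust variance model, the 4 Dex and Dil arrays only, the replicate letter as a block, the mean over all of a gene's probe sets, filtered ones included, and each array left out, where a lone array is assumed to vary like the other groups.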

Additional observations from a re-analysis of the deposited data

Results flagged for a closer look

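The dexamethasone effect on Erdr1 differed between the lungs without and after retinoic acid by -3.55 on the log2 scale, by limma's test of the difference between the 2 effects (adjusted p = 6.8e-05). The effect was -4.77 without retinoic acid and -1.22 after it, and both Dex arrays were lower than both Dil arrays as both RA-Dex arrays were lower than both RA arrays. With each gene's probe sets averaged 0 differences were called, with no filter 22, and without each array in turn 1 or 2.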

How the results depend on the processing

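Of the 82 named probe sets called in Dex against Dil, 21 stayed called under every alternative that gave them a value (18 under all 13, and 3 had none under the stricter filter) and 0 reversed. Calls were ended in 54 by no filter on low signals, 33 by no intensity trend, 23 by a fit of the 4 Dex and Dil arrays only, 18 by averaging a gene's probe sets, 4 by quantile normalization, 2 by a pseudocount in place of the floor and 32 to 46 by leaving out 1 of the 4 arrays. Of the 81 named probe sets not called, 5 passed in some setting. The 146 rises became 57 with no filter, 74 with no intensity trend and 94 with the mean over probe sets, and 54 to 127 without each array. The 90 falls became 39 with no filter, 38 with no intensity trend and 58 with the 4 arrays only, and 26 to 40 without each array. Of the 236 calls, 57 were shared with those of no filter, 109 with those of no trend and 172 with those of the 4 arrays. The 256 calls of RA-Dex against RA became 143 with no filter, 126 with no intensity trend and 81 to 250 without each array of the series, and the 1 called difference became 22 with no filter, 0 with the mean over probe sets and 1 or 2 without each array. The cause of these moves was not tested.

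Same-lettered deviations from the group means correlated at 0.136 between Dex and Dil and at -0.221 to 0.103 between the other pairs of groups. These values cannot settle whether the letters a and b pair the samples, which is not stated. With the letter as a replicate block, 116 probe sets rose and 55 fell, 168 of them shared with the 236, 186 changed in RA-Dex against RA and 1 difference was called, and the block ended 20 of the 82 named calls.

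Among named genes that were not called, these changed sign without 1 of the 4 arrays, with the lowest and highest value in parentheses: Eif2s3y (-0.66 to 0.93), Bcl2 (-0.17 to 0.40), Eln (-0.078 to 0.31), Msln (-0.022 to 0.20), Sftpb (-0.083 to 0.26), Pecam1 (-0.29 to 0.43), Cd4 (-0.57 to 0.69), Upk3b (-0.14 to 0.21), Cma1 (-0.25 to 0.28), Rrm2 (-0.12 to 0.095), Mmp14 (-0.28 to 0.24), Cox8b (-0.20 to 0.13), S100a8 (-0.46 to 0.39), Ctnnb1 (-0.13 to 0.049), Sema3a (-0.24 to 0.10), Kit (-0.16 to 0.016), Lama5 (-0.22 to 0.069), Npm1 (-0.24 to 0.083), Hspa5 (-0.24 to 0.054), Sftpc (-0.33 to 0.12), Foxf1 (-0.40 to 0.16), Odc1 (-0.30 to 0.056), Mki67 (-0.69 to 0.43), Spry4 (-0.70 to 0.39), Cd68 (-0.40 to 0.060), Scgb1a1 (-0.36 to 0.0058), Fbn2 (-0.52 to 0.11), Thy1 (-0.56 to 0.020), S100a9 (-0.87 to 0.11) and Alb (-1.68 to 0.78). The mean over probe sets gave -0.53 for Irf7, -0.022 for Hsp90aa1, -0.56 for Igf1 and 0.080 for Notch1, and quantile normalization gave 0 for Sftpc. With 2 arrays a group, the number of arrays limits the precision: the median SE of a log2 fold change was 0.236.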

Other observations

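Further calls outside the naming rule, chosen after their values were seen, are given singly and stand for no group. Among genes known from leukocytes the calls that fell included lymphotoxin beta, Ltb (-1.33 ± 0.289, adjusted p = 0.0325), the surface antigen Cd52 (-1.48 ± 0.194, adjusted p = 0.00178), the actin regulator Coro1a (-0.89 ± 0.193, adjusted p = 0.0325), Plac8 (-1.63 ± 0.246, adjusted p = 0.00459), Lst1 (-1.32 ± 0.25, adjusted p = 0.0163) and the myeloid and B cell factor Irf8 (to 0.500 of its Dil level, adjusted p = 0.0209). Their values after retinoic acid were -1.48, -1.16, -0.92, -1.11, -0.79 and -1.15. Signals of Cd52 were 553 and 714 in Dex and 1791 and 1710.4 in Dil, and of Irf8 459.7 and 439 in Dex and 923 and 874 in Dil, with no overlap between the groups in either gene.

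Other falls were spread over several roles. The transcription factors Sox4 (-1.42 ± 0.168, adjusted p = 0.00102), Irx3 (-1.23 ± 0.216, adjusted p = 0.0109) and Hic1 (-1.44 ± 0.314, adjusted p = 0.033), the imprinted gene Mest (-0.93 ± 0.153, adjusted p = 0.00718), the proliferation gene Cdca7 (-1.32 ± 0.291, adjusted p = 0.0345), the semaphorin receptor Plxnd1 (-1.05 ± 0.171, adjusted p = 0.00718), the actin-binding protein Marcksl1 (-1.07 ± 0.137, adjusted p = 0.00162) and the kinase Plk2 (-1.55 ± 0.288, adjusted p = 0.015) were among them. Rises outside the naming rule included the basement membrane protein Tinagl1 (1.78 ± 0.203, adjusted p = 0.000845), the dipeptidase Dpep1 (2.03 ± 0.245, adjusted p = 0.00108), the cell cycle regulator Rgcc (1.96 ± 0.148, adjusted p = 4.49e-05) and the growth arrest gene Gas1 (1.14 ± 0.174, adjusted p = 0.00485). They also included the decoy receptor Il1r2 (1.83 ± 0.397, adjusted p = 0.0325), the cholesterol exporter Abca1 (1.21 ± 0.263, adjusted p = 0.0325), Foxo3 (1.25 ± 0.193, adjusted p = 0.00522), the methyltransferase Gnmt (1.85 ± 0.329, adjusted p = 0.0116) and Nampt of NAD synthesis (1.43 ± 0.251, adjusted p = 0.0106). Il1r2 stands on the cytokine list with its brightest probe set, which is another one and was not called. These 9 rises had values between 1.13 and 2.40 after retinoic acid.

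Among calls without retinoic acid, 3 were picked for their lower value after it. The chitinase-like protein Chil3 had signals of 546 and 516 in Dex and 206 and 122 in Dil and 342 and 412 in RA and 391 and 431 in RA-Dex. The mitochondrial transhydrogenase Nnt had 1334 and 1226 in Dex and 454 and 319 in Dil and 444 and 522 in RA and 453 and 542 in RA-Dex. The protease Ctse had 2325 and 2947 in Dex and 699 and 1174 in Dil and 541 and 671 in RA and 703 and 647 in RA-Dex. The adjusted p of the differences between the 2 effects lay between 0.578 and 0.763, so none passed.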
